A study of Mus musculus with 8 samples.

Results

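The genes described here are 4 caspases (Casp2, Casp6, Casp8 and Casp9), 3 inhibitors of apoptosis (Birc2, Birc3 and Xiap) and the cytochrome c gene Cycs, chosen by name from the deposited expression table. All 8 were listed there, among 11783 genes, and all 8 passed the filter on low values, as did 10756 genes in total. The samples were granulosa cells, the somatic cells that surround the oocyte, obtained by dissociating mouse ovaries (strain C57BL/6) on postnatal day 1, called PND1, and on postnatal day 4, called PND4, with 4 libraries each and no treatment or engineered allele in the labels. Their values are FPKM, a fragment count scaled by gene length and by library size, so that levels of different genes can be compared per length. The series is framed around the activation of primordial follicles, the resting follicles that form in the mouse ovary in these days. The labels do not say how the cells were purified or how many animals or litters gave the 4 libraries of each age, so p-values reflect only how these libraries vary, which may be technical.

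Caspases are proteases that are made as inactive precursors and cut other proteins after aspartate. Initiator caspases are switched on in large complexes: caspase-8 at death receptors, caspase-9 on the apoptosome that APAF1 builds once cytochrome c has left the mitochondria, and caspase-2 on a complex of PIDD1 and CRADD. Executioner caspases, caspase-6 among them, then dismantle the cell. XIAP binds and blocks caspases directly, while the proteins of Birc2 and Birc3 (cIAP1 and cIAP2) are ubiquitin ligases at the TNF receptor that favour NF-kB signalling over caspase-8 activation. In the ovary many germ cells die while follicles form, and the death of granulosa cells is a hallmark of the later loss of growing follicles. Transcript levels say nothing of whether a caspase was cleaved.

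All 12 genes looked for as granulosa markers, not all of them particular to these cells, were listed. Their sums were 888 to 1243 FPKM at PND1 and 929 to 1179 at PND4. Krt18 and Krt8, keratins that surface epithelium also expresses, carried most of these sums. The other 10 summed to 238 to 271 FPKM at PND1 and 235 to 260 at PND4. They were below the stroma sum in 8 of 8 libraries and below the surface epithelium sum in 3 of 8. That stroma sum still held its most abundant gene, Acta2. Without Acta2 the stroma sum was lower than that of these 10 genes at both ages, at 94.0 to 108 and 122 to 157 FPKM. Oocyte markers (11 of 13 analysed) summed to between 13.4 and 65.0 FPKM at PND1 and between 17.8 and 216 at PND4, the highest being PND4 replicate 3, where Zp3 stood at 61.3 and Zp2 at 55.8 FPKM. Of 10 oocyte markers tested 0 were called, with 5 on the higher and 5 on the lower side at PND4. On the lower side Figla had ages that did not overlap (log2 difference -1.77, limma adjusted p = 0.740). On the higher side Zp3 had a log2 difference of 2.32 (limma adjusted p = 0.740), and the maximum over all genes tested was also 2.32. The Zp3 ages overlapped, at 1.49, 0.0804, 12.4 and 5.52 FPKM in PND1 replicates 1 to 4. PND4 replicates 1, 2 and 4 had 12.7, 13.4 and 10.9 FPKM of Zp3, all above PND1 replicates 1, 2 and 4. Immune markers (7 of 12 analysed) summed to between 11.4 and 30.1 FPKM at PND1 and between 4.21 and 59.8 at PND4, with Lyz2 listed at 0 in PND4 replicate 2 and Cd68 at 0 in PND4 replicate 1. Of 7 endothelial markers 1, Esam, was analysed, at 0.961 to 9.05 FPKM over the 8 libraries. The stroma sums (8 of 9 markers) overlapped between ages, at 458 to 814 and 482 to 836 FPKM, and were carried by Acta2. The other 7 stroma markers all had a higher PND4 mean on the log scale, and their sums did not overlap, at 94.0 to 108 FPKM at PND1 and 122 to 157 at PND4. Among them Dcn did not overlap (log2 difference 0.83, limma adjusted p = 0.556), and 0 were called. These genes, Figla, the log2 difference of Zp3 and the sums without the keratins or Acta2 were picked after their values were seen. Surface epithelium sums (5 of 6 markers) overlapped, at 85.0 to 289 and 154 to 354 FPKM. Erythroid sums (3 of 6 markers) did not overlap, at 17.1 to 48.9 FPKM at PND1 and 0.268 to 11.4 at PND4. Each of these 3 markers was lower at PND4 without overlap (log2 differences from -2.25 to -1.92), and 0 of them were called. Over all genes tested 0.0093% (1 of 10756) were called. Among all genes tested 4.24% had ages that did not overlap, with 3.16% higher and 1.08% lower at PND4. Mitochondrially encoded genes made up 26.6% to 30.6% of the summed FPKM at PND1 and 22.4% to 29.4% at PND4. The part of this share or of any of these cells in the values of the 8 genes was not tested. In bulk RNA a smaller number of cells of a type and less RNA per cell cannot be told apart. Libraries numbered 1 stood apart at both ages, with 1234 genes (PND1) and 1097 genes (PND4) listed at exactly 0 against 222 to 858 in the other 6.

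On GRCm38 the caspase genes lie on separate chromosomes. Casp2 (ENSMUSG00000029863) lies on chromosome 6 from 42264985 to 42282508, Casp6 (ENSMUSG00000027997) on chromosome 3 from 129901425 to 129914103, Casp8 (ENSMUSG00000026029) on chromosome 1 from 58795374 to 58847503 and Casp9 (ENSMUSG00000028914) on chromosome 4 from 141793612 to 141815976, all on the plus strand. Birc2 (ENSMUSG00000057367, chromosome 9 from 7818227 to 7837064) and Birc3 (ENSMUSG00000032000, chromosome 9 from 7848699 to 7873186) are paralogs in tandem on the minus strand, separated by 11634 bases with 0 annotated genes between them. Xiap (ENSMUSG00000025860) lies on the X chromosome from 42059679 to 42109656 on the plus strand, and Cycs (ENSMUSG00000063694), on the minus strand, on chromosome 6 from 50562563 to 50566538. Casp9 shares 94 exonic bases with the genes Cela2a and Ctrc on the opposite strand, and the sources used here do not give the strand setting of the counting. Birc2 and Birc3 are close paralogs, and cytochrome c is known for many processed pseudogenes, so reads of these genes may have been shared with their copies.

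The start regions of these genes differ in base composition. The 250 bases before the RefSeq start are shown for the tandem pair Birc2 and Birc3, for Casp8, whose values across libraries were most like those of Birc3, and for Casp2, the gene with the smallest p-value of the 8. Sequences are from RefSeq (GRCm38.p6), read 5′ to 3′ on the strand of the gene, with CpG dinucleotides in capitals. The windows are chr6:42264735-42264984 (plus strand, Casp2), chr1:58802252-58802501 (plus strand, Casp8), chr9:7837058-7837307 (minus strand, the outermost of the Birc2 starts) and chr9:7873171-7873420 (minus strand, Birc3).
Casp2: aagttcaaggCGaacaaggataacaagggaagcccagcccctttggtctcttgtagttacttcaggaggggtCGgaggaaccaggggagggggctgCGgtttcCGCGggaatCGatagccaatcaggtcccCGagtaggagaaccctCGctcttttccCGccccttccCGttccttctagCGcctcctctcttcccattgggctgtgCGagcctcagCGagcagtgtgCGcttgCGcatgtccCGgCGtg
Casp8: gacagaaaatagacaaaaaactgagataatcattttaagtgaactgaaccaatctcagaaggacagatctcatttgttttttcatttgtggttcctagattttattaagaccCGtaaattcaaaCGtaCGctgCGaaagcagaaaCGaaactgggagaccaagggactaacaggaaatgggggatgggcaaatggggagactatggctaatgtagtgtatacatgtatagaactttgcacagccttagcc
Birc2: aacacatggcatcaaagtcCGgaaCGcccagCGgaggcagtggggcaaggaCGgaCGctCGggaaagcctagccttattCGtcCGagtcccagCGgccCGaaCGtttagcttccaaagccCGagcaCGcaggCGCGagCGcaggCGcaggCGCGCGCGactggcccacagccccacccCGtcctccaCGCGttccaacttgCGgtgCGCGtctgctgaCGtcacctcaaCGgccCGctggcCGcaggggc
Birc3: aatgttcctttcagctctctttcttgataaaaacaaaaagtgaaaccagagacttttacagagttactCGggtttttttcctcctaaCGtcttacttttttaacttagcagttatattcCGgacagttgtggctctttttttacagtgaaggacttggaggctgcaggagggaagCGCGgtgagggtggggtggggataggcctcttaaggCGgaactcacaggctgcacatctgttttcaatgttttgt
Birc2 has 31 CpG in this window and 68.4% G or C, against 6 CpG and 43.6% for its neighbour Birc3. Casp8 has 5 CpG and 39.6%, and Casp2 17 CpG and 60.4%. The Casp8 start used here, at 58802502, lies inside the annotated gene, which begins at 58795374. Over all 32851 windows of this length in the table the median was 6 CpG and 52.4% G or C, and 53.7% of windows held 6 CpG or fewer, so the Birc3 and Casp8 windows are ordinary in this respect. Windows of Casp9 (25 CpG) and Cycs (23 CpG) were also CpG-rich, and Casp6 had 11. The other Birc2 window had 19 CpG, and the Xiap windows had 13, 1 and 1. The letters GGGCGG (GC box, either strand) were found in 6 of the 11 start windows of the 8 genes and in 32.7% of all windows, with 4 matches before Casp9. The letters CCAAT (either strand) were in 3 of the 11 windows, those of Casp2, Casp8 and Cycs, and in 33.8% of all. The letters TATAAA (either strand) were in 1 of the 11, before a start inside the Xiap gene, and in 12.4% of all. The NF-kB consensus (either strand) was in 0 of the 11 windows and in 7.25% of all. A match is a description of letters only.

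None of the 8 genes passed the test between ages (limma on log2(FPKM + 1) over all genes, Benjamini-Hochberg adjusted p between 0.752 and 0.913). Over all genes tested 0.0093% (1 of 10756) passed. The values below therefore describe these libraries, with no difference called. The 95% intervals of Casp2 and Birc3 did not reach 0, which is the case for 5.9% of all genes tested. The PND4 mean was lower for 3 of the caspases and higher for Casp8, the 3 inhibitors and Cycs.

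**Figure D1:**
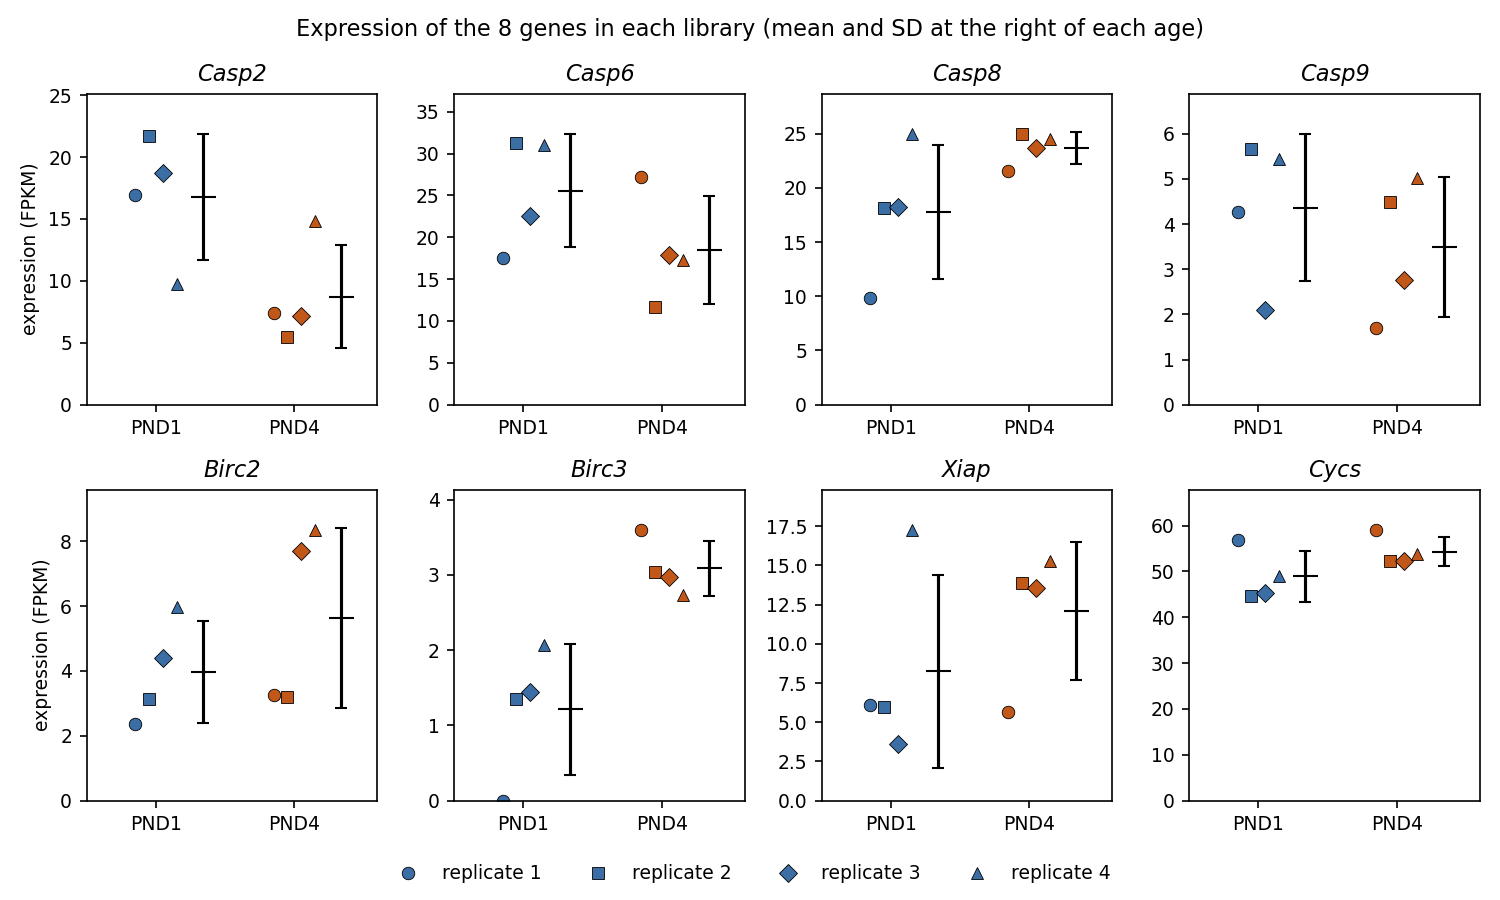
Expression of each gene in FPKM (y axis, from 0, a separate scale per gene) in the 4 PND1 (blue) and 4 PND4 (orange) libraries, with symbols for the replicate number and the mean and SD beside each age. Birc3 is the gene whose ages do not overlap. For Casp2, replicate 4 of each age lies between the other libraries of both ages, with PND4 above PND1. For Xiap, PND1 replicate 4 and PND4 replicate 1 sit with those of the other age.

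Casp2, the initiator caspase linked to genome and centrosome stress, had the lowest p-value of the group. It stood at 17.0, 21.7, 18.7 and 9.72 FPKM in PND1 replicates 1 to 4 and at 7.39, 5.50, 7.20 and 14.8 FPKM in PND4 replicates 1 to 4. In each age replicates 1 to 3 were apart from the other age. Replicate 4 of both ages lay in the gap between these, with the PND4 value above the PND1 value. The mean was 16.8 ± 5.09 FPKM in PND1 libraries and 8.73 ± 4.15 in PND4 libraries (SD, n = 4 per age), a log2 difference of -0.90 (95% interval -1.60 to -0.20, limma adjusted p = 0.752). Casp2 made up 26.8% ± 9.19 of the summed FPKM of the 4 caspases at PND1 and 15.6% ± 5.67 at PND4. In this share PND1 replicate 4 (13.6%) lay within the PND4 values. PND4 replicate 4 (24.0%) lay above it and below the other PND1 libraries. Of the partners on its activating complex, Pidd1 stood at 1.57 ± 1.04 and 1.67 ± 1.22 FPKM and Cradd at 1.94 ± 1.23 and 1.96 ± 1.57 FPKM, low in both ages, with 0 of 2 called.

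Casp8, the death receptor caspase, was even among PND4 libraries and spread at PND1. It was listed at 9.84, 18.2, 18.2 and 25.0 FPKM in PND1 replicates 1 to 4 and at 21.5, 24.9, 23.7 and 24.5 FPKM in PND4 replicates 1 to 4. The highest PND1 library reached the top of the PND4 values and the lowest, PND1 replicate 1, was also the library with most genes at 0. The means were 17.8 ± 6.19 and 23.7 ± 1.51 FPKM (log2 difference 0.46, 95% interval -0.074 to 0.99, limma adjusted p = 0.805). Without PND1 replicate 1 the log2 difference was 0.21.

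Casp9, the apoptosome caspase, was the least abundant of the 4 caspases. Its values were 4.28, 5.66, 2.10 and 5.43 FPKM in PND1 replicates 1 to 4 and 1.69, 4.49, 2.76 and 5.02 FPKM in PND4 replicates 1 to 4, so that both ages ran over nearly the same range. The log2 difference was -0.27 (95% interval -1.11 to 0.57), and it was -0.044 without PND4 replicate 1 and -0.51 without PND1 replicate 3. Casp8 exceeded Casp9 in all 8 libraries, by 2.30 to 8.67 times at PND1 and by 4.88 to 12.7 times at PND4.

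Casp6, an executioner caspase that cuts nuclear lamins, stood at 17.5, 31.2, 22.5 and 31.1 FPKM in PND1 replicates 1 to 4. At PND4 it stood at 27.2, 11.7, 17.9 and 17.2 FPKM in replicates 1 to 4. Replicate 1 of each age lay within the values of the other age, while the remaining 3 PND1 libraries were all above the remaining 3 PND4 libraries. Means were 25.6 ± 6.75 and 18.5 ± 6.42 FPKM (log2 difference -0.47, 95% interval -1.05 to 0.11, limma adjusted p = 0.805). Leaving out both libraries numbered 1, an alternative chosen after the data were seen, gave a log2 difference of -0.82 (limma adjusted p = 0.508, against 0.508 to 0.909 over all alternatives), and with 1 library left out it lay between -0.66 and -0.28, the latter without PND4 replicate 2.

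Birc3, encoding cIAP2, was the least abundant of the 8 genes and the 1 whose libraries did not overlap between ages. It was listed at 0, 1.35, 1.44 and 2.07 FPKM in PND1 replicates 1 to 4 and at 3.60, 3.04, 2.97 and 2.74 FPKM in PND4 replicates 1 to 4. Every PND4 library was above every PND1 library. The means were 1.21 ± 0.870 and 3.09 ± 0.364 FPKM, a log2 difference of 0.99 (95% interval 0.053 to 1.93, limma adjusted p = 0.805). Among all genes tested 4.24% had ages that did not overlap, 340 higher (3.16%) and 116 lower (1.08%) at PND4, and with median-of-ratios scaling the split was 187 higher and 181 lower. Birc3 did not overlap with either scaling. At this low level the size of the difference depended on the pseudocount, with 1.93 at a pseudocount of 0.1 and 0.39 at 5, and on PND1 replicate 1, without which it was 0.65. An exact 0 can be a failed estimate rather than an absent transcript.

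Birc2, encoding cIAP1, stood at 2.38, 3.13, 4.39 and 5.98 FPKM in PND1 replicates 1 to 4 and at 3.24, 3.21, 7.68 and 8.35 FPKM in PND4 replicates 1 to 4. Replicates 3 and 4 were the higher ones in both ages, and the ages overlapped. Its means were 3.97 ± 1.58 and 5.62 ± 2.78 FPKM (log2 difference 0.37, 95% interval -0.47 to 1.21, limma adjusted p = 0.874). The log2 difference was 0.17 without PND4 replicate 4, 0.20 without PND1 replicate 1 or PND4 replicate 3, and 0.55 without PND4 replicate 2.

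Xiap, the direct caspase inhibitor, was high in 3 of 4 PND4 libraries and low in 3 of 4 PND1 libraries. PND1 replicates 1 to 4 had 6.10, 6.00, 3.59 and 17.2 FPKM. PND4 replicates 1 to 4 had 5.62, 13.9, 13.6 and 15.3 FPKM. The single highest value was thus a PND1 library, the only PND1 library among the 4 above 13 FPKM. Means were 8.23 ± 6.12 and 12.1 ± 4.38 FPKM (log2 difference 0.62, 95% interval -0.32 to 1.56, limma adjusted p = 0.8291). The log2 difference was 1.02 without PND1 replicate 4 and 0.35 without PND1 replicate 3. Xiap made up 58.9% ± 15.2 of the summed FPKM of the 3 inhibitors at PND1 and 57.0% ± 9.77 at PND4.

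Cycs encodes the somatic cytochrome c, an electron carrier between respiratory complexes III and IV and, once released, the trigger of the apoptosome. It was the most abundant and the steadiest of the 8 genes. It stood at 56.9, 44.7, 45.2 and 49.0 FPKM in PND1 replicates 1 to 4 and at 59.0, 52.3, 52.2 and 53.7 FPKM in PND4 replicates 1 to 4. Only PND1 replicate 1 kept the ages from separating, since the other 3 PND1 libraries were below all 4 PND4 libraries. Means were 48.9 ± 5.62 and 54.3 ± 3.21 FPKM, and the log2 difference of 0.15 (95% interval -0.12 to 0.43, limma adjusted p = 0.852) was close to the median of all genes tested, 0.078. With median-of-ratios scaling it was 0.075, against a median of 0.0089.

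**Figure D2:**
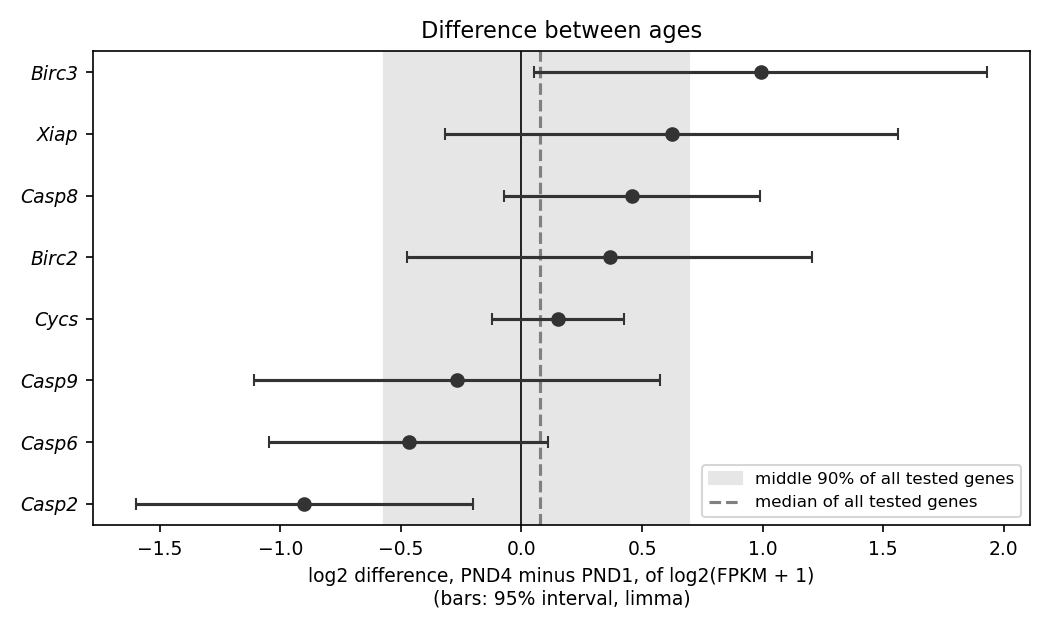
Log2 difference, PND4 minus PND1, of log2(FPKM + 1) for each of the 8 genes (points) with its 95% interval from limma, against the middle 90% of all tested genes (grey, -0.57 to 0.69) and their median (dashed line, 0.078). The intervals of Casp2 and Birc3 do not reach 0, and neither gene passed adjustment over all genes.

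By level per gene length over the 8 libraries the order was Cycs (51.6 ± 5.12 FPKM, SD, n = 8), Casp6 (22.0 ± 7.18), Casp8 (20.7 ± 5.22), Casp2 (12.7 ± 6.08), Xiap (10.2 ± 5.34), Birc2 (4.80 ± 2.27), Casp9 (3.93 ± 1.54) and Birc3 (2.15 ± 1.18). Of the 7 neighbouring pairs in this order, 1 was apart beyond its spread: Cycs was above Casp6 in 8 of 8 libraries, with its lowest value, 44.7 FPKM, above the highest of Casp6, 31.2 FPKM. The other neighbours had overlapping ranges. Casp6 was above Casp8 in 4 of 4 PND1 libraries and in 1 of 4 PND4 libraries, and Casp8 was above Casp2 in 1 of 4 PND1 libraries and in 4 of 4 PND4 libraries. The ratio of Casp8 to Casp2 was 0.580, 0.838, 0.975 and 2.57 in PND1 replicates 1 to 4 and 2.91, 4.54, 3.29 and 1.66 in PND4 replicates 1 to 4. PND1 replicate 4 lay within the PND4 values. These counts and this ratio were looked at after the values of the genes were seen and were given no test.

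The summed FPKM of the 4 caspases was 48.6, 76.8, 61.5 and 71.2 in PND1 replicates 1 to 4 and 57.8, 46.6, 51.5 and 61.6 in PND4 replicates 1 to 4. That of the 3 inhibitors was 8.48, 10.5, 9.42 and 25.3 in PND1 replicates 1 to 4 and 12.5, 20.2, 24.2 and 26.4 in PND4 replicates 1 to 4. The caspase sum exceeded the inhibitor sum in every library, by 5.60 ± 1.97 times at PND1 and 2.85 ± 1.19 times at PND4. In this ratio PND1 replicate 4 (2.81) was among the PND4 values (2.13 to 4.64). Each sum leaves out other members of its family, among them Birc5 and Birc6 for the inhibitors. The ratio therefore holds for the genes chosen here and does not describe a balance of the families. The higher inhibitor sum of PND1 replicate 4 was mostly Xiap, 68.2% of it.

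Across libraries the 8 genes did not move as a block. Of 28 pairs, 13 had a positive Pearson r of log2(FPKM + 1) over the 8 libraries. The most alike were Casp8 and Birc3 (r = 0.936, Spearman rho = 0.595), which were both lowest in PND1 replicate 1. Without that library r was 0.704, and without the 2 libraries farthest from the Casp8 median, PND1 replicates 1 and 2, it was 0.535 (rho = 0.0286). The size of r thus depended on the libraries kept, though leaving out the farthest ones narrows the range and by itself tends to lower r. The least alike were Casp2 and Birc3 (r = -0.663). Casp8, Birc2 and Xiap were lower where more genes were listed at 0 (r = -0.734, -0.724 and -0.648 with that number over the 8 libraries), and the part of this in their differences was not tested. These correlations are descriptions over 8 libraries that share 2 ages and were chosen among many.

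**Figure D3:**
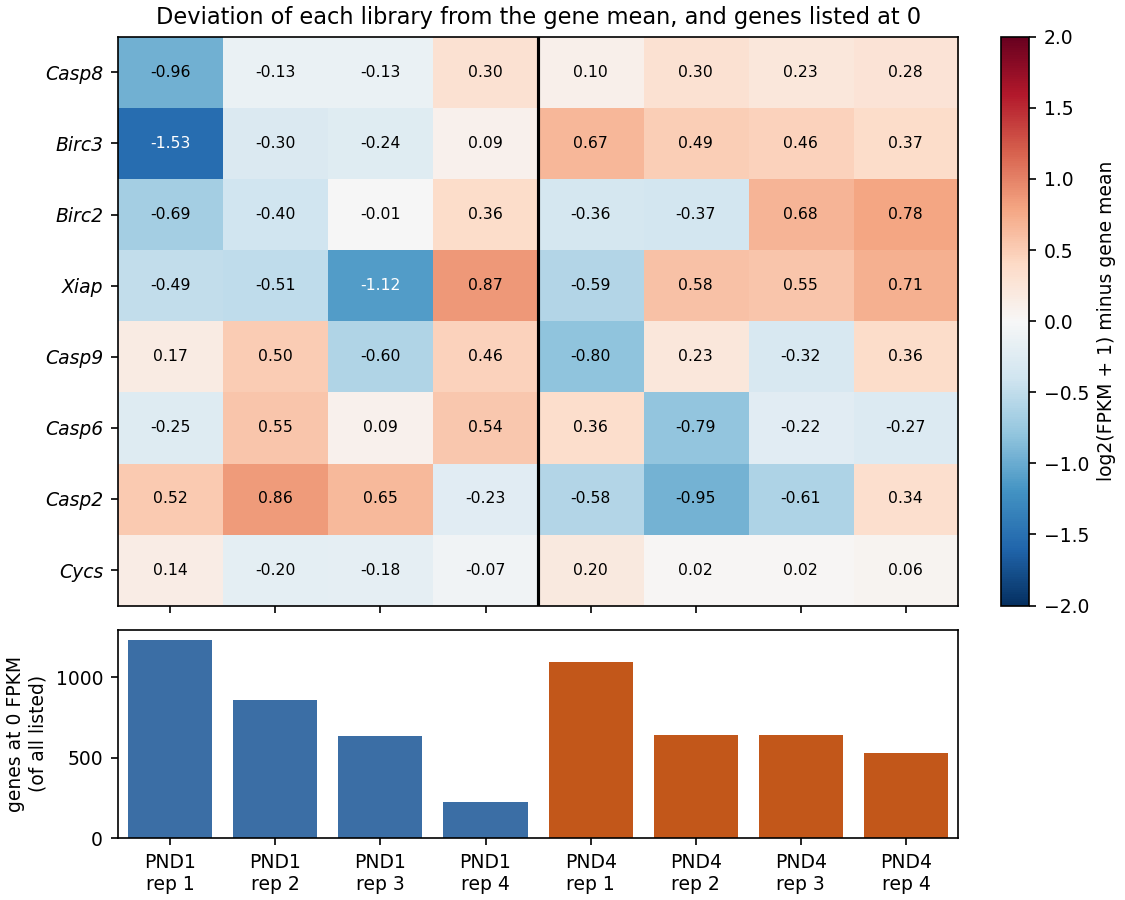
Upper panel, log2(FPKM + 1) of each gene in each library minus the gene's mean over the 8 libraries (red above, blue below, values printed); lower panel, number of genes listed at 0 FPKM per library (bars from 0, PND1 blue, PND4 orange). PND1 replicate 1, with 1234 genes at 0, is lowest for Casp8, Birc2 and Birc3, and PND1 replicate 4, with 222, is highest for Casp8 and Xiap.

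Among 4684 or 4685 other genes with a known symbol and expression above the median, the genes most like each member by Pearson r over the 8 libraries were Ruvbl2 (0.982) and Jam3 (0.979) for Birc3, and Bmi1 (0.974) and H2afy (0.970) for Casp8. For Cycs they were Nop53 (0.970) and Psmc5 (0.965), for Birc2 Atp6v1a (0.961) and Gipc1 (0.949), and for Xiap Sumo2 (0.948) and Aldh3a2 (0.934). For Casp2 they were Surf4 (0.937) and Ube2e2 (0.933), for Casp9 Rpl36 (0.930) and Pdia3 (0.924), and for Casp6 Rab1b (0.921) and Fst (0.902). With 8 libraries and this many candidates, high values of r are found for any gene, and nothing is read from these names.

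The other genes of the pathway given here, from lists made with earlier results of these data known, showed 0 calls in either direction. Birc5, the inhibitor family member known for its part in cell division, stood at 47.2 ± 10.6 FPKM in PND1 and 46.6 ± 7.20 FPKM in PND4 libraries, and the giant family member Birc6 at 7.33 ± 1.84 and 7.77 ± 1.47 FPKM. The apoptosome and mitochondrial factors (5 tested, 0 called) had a median of 0.19, which was 0.056 without PND1 replicate 1 and 0.38 without PND1 replicate 3. They included Aifm1, an oxidoreductase of the mitochondrial intermembrane space, at 18.8 ± 5.32 and 19.99 ± 1.56 FPKM, and Htra2, a protease that can counter inhibitors of apoptosis, at 16.2 ± 0.644 and 22.0 ± 7.84 FPKM. Apaf1, the scaffold of the apoptosome, chosen after its values were seen, stood at 4.56 ± 1.64 and 5.46 ± 2.00 FPKM, above Casp9 in 1 of 4 PND1 and 4 of 4 PND4 libraries.

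Upstream of Casp8, 0 of 15 death receptor and RIPK genes were called. Their median log2 difference was -0.012 and ran from -0.14 (without PND4 replicate 2) to 0.090 (without PND4 replicate 1) with 1 library left out. The TNF receptor gene Tnfrsf1a stood at 63.7 ± 11.5 and 66.4 ± 9.64 FPKM, and Tab2, an adaptor of the TAK1 kinase, at 34.9 ± 9.65 and 27.2 ± 6.96 FPKM. Of 11 NF-kB genes 0 were called. Their median was 0.0087, with -0.069 without PND4 replicate 4, 0.15 without PND4 replicate 1 and -0.064 with median-of-ratios scaling, so its sign was not stable. The subunit gene Rela stood at 34.5 ± 3.09 and 34.8 ± 7.17 FPKM and the kinase gene Chuk at 17.1 ± 0.927 and 17.7 ± 3.13 FPKM. Downstream, 0 of 8 caspase substrates were called. Their median was 0.14, and it was 0.041 without PND4 replicate 2 and 0.25 without PND1 replicate 3. The lamin gene Lmna stood at 68.5 ± 13.8 and 86.8 ± 5.59 FPKM (limma adjusted p = 0.805). Its ages did not overlap, which is the case for 4.24% of all genes tested. The actin-severing protein gene Gsn stood at 109 ± 6.57 and 93.9 ± 22.6 FPKM.

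In the BCL2 family, which governs the release of cytochrome c, 0 of 10 were called and 8 had a higher PND4 mean on the log scale. Their median was 0.19, and it was 0.081 without PND4 replicate 4 and 0.31 without PND4 replicate 1. Its most abundant members were the survival gene Mcl1, at 48.8 ± 6.36 and 51.2 ± 7.26 FPKM, and the pore-forming Bax, at 36.1 ± 4.10 and 46.0 ± 11.0 FPKM. Around Cycs in the respiratory chain, 0 of 18 tested genes of complexes III and IV and of haem attachment were called, with 15 of 18 on the higher side (median 0.14). Cox8a stood at 225 ± 18.5 and 222 ± 42.2 FPKM and Uqcrc1 at 144 ± 8.67 and 151 ± 9.73 FPKM. Over all genes tested 6486 of 10756 were on the higher side, with a median of 0.078, and the median of the 8 genes was 0.26 with values from -0.90 to 0.99. Without PND4 replicate 4 the median of the 8 was 0.16, and the stricter filter, which left 5 of them, gave 0.15. The median of all genes was 0.028 without PND1 replicate 1 and 0.135 without PND4 replicate 1.

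**Figure D4:**
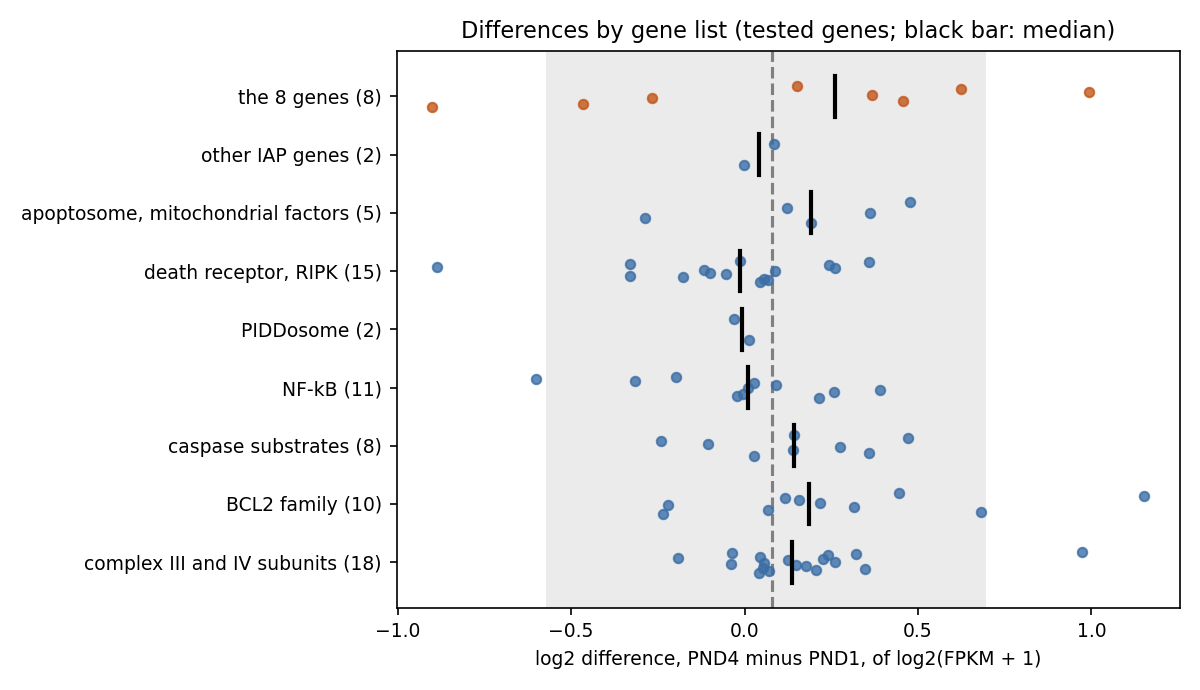
Log2 difference, PND4 minus PND1, of log2(FPKM + 1) of each tested gene by list (points; number tested in brackets), with the list median (black bar), the median of all tested genes (dashed line, 0.078) and their middle 90% (grey). The 8 genes run from -0.90 to 0.99, with Casp2 and Birc3 outside the grey band.

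In the authors' deposited table, which gives the fold as PND1 over PND4, Casp2 had a fold of 1.84 (p = 0.0845, q = 0.742), Birc3 of 0.545 (p = 0.0570, q = 0.742) and Cycs of 0.875 (p = 0.0453, q = 0.742). The authors' deposited table had 0 genes of 11783 with a q under 0.05 (smallest q = 0.107). Directions in the authors' deposited table were the same as here for all 8 genes, from the same libraries.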

How the data were processed

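Granulosa cell RNA of 8 samples was extracted with a column kit, per the labels' protocols. The submitters' processing notes name Trim Galore, HISAT2 and GRCm38. The authors deposited a filtered table of FPKM per gene, per the file headers. The sources used here do not give the program, annotation, strand setting or filter behind it. The authors' deposited table of comparisons holds a ratio, read from the values as the fold of PND1 over PND4, the log2 of that fold, and p-value and q-value columns from a test that the sources used here do not name.

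FPKM are not counts. Between 32.1% and 43.1% of low values of single-transcript genes lay within 0.1 of a multiple (below 20) of the best unit found per library (20% by chance before that search), so whole reads were not recovered and read depth is unknown. Values were taken as log2(FPKM + 1), which understates changes of low genes. A gene was tested where 4 or more libraries had 1 FPKM or more, with limma 3.58.1 (R 4.3.3, mean-dependent prior variance, no block), PND4 minus PND1, with Benjamini-Hochberg adjustment over all genes and a threshold of 0.05.

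Samples were grouped by the age label. The 8 genes, the lists and the rule for other names were chosen with earlier results of these data known. Named from each list were 2 genes with the highest mean FPKM where none passed, and for each of the 8 genes the 2 with the highest r, without predicted loci. Alternatives were 2 scalings, 2 filters, 2 pseudocounts, the replicate number as a block, robust variance and leaving out each library. Leaving out both libraries numbered 1 was chosen after seeing the data. Results of some genes of the lists are not reported here. Gene positions are from GENCODE M21, start sequences from RefSeq for 8 of 8 genes. Figures were drawn with matplotlib 3.10.9.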

Additional observations from a re-analysis of the deposited data

Results flagged for a closer look

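No value of the 8 genes met the rule for a library far from the others of its age. Among the genes named, the 8 included, Dixon's test at the 95% level picked out 4 values of 78 groups tested, and about 1 in 20 is picked out by chance. Mcl1 was low in PND1 replicate 1, at 39.3 FPKM. Krt18 was low in PND1 replicate 2, at 378.0 FPKM, and in PND4 replicate 1, at 378.7 FPKM. Zp3 was high in PND4 replicate 3, at 61.3 FPKM.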

How the results depend on the processing

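Under all 17 alternatives 0 of the 8 genes passed, and 1 gene of all tested passed. All 133 values of single members under these alternatives kept their direction and stayed short of the threshold, with limma adjusted p from 0.508 (Casp6) to 0.993 (Casp9). The filters, the replicate block and robust variance cannot change a gene's log2 difference, so the directions under these were fixed in advance. With 1 library left out, the log2 difference ranged from -1.16 to -0.74 for Casp2, -0.66 to -0.28 for Casp6, 0.21 to 0.63 for Casp8, -0.51 to -0.044 for Casp9, 0.17 to 0.55 for Birc2, 0.65 to 1.19 for Birc3, 0.35 to 1.02 for Xiap and 0.11 to 0.23 for Cycs. The stricter filter left Casp9, Birc2 and Birc3 untested. The replicate block gave 0 of 8 and changed no call. Deviations of same-numbered libraries from their age means had correlations of 0.046, -0.0088, 0.032 and 0.12, and 1 of 4 PND1 libraries was most like its own number. Such correlations cannot decide whether same-numbered libraries share a litter, day or batch, which the labels do not give. The median of complex III and IV genes moved from 0.14 to 0.062 with median-of-ratios and 0.058 with upper-quartile scaling, as the median of all genes moved from 0.078 to 0.0089 and 0.0047.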
